A study of Homo sapiens with 32 samples.

Results

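The RNA recovered with the cap-binding part of eIF3d from thapsigargin-treated cells (IP Tg) was set against the input RNA of the same cells (input Tg). All Subunit-Seq libraries came from HEK293T cells, a human embryonic kidney line, of genotype HA-eIF3d-TEV, which the labels give without saying whether the line is a clone. IP Tg and input Tg came from cells given 600 nM thapsigargin (Tg) for 16 h, and IP DMSO and input DMSO from cells given the solvent DMSO instead, with 2 libraries in each of the 4 groups. The genes described are those whose RPKM averaged 1 or more across the 4 input libraries, 9813 of the 58721 genes in the tables. Near that limit were HIPK3, inside it at 1.0006 RPKM, and LAMA4, outside it at 0.99999 RPKM. RPKM counts the reads of a gene, scaled to its length and to the depth of the library.

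eIF3 is the multi-subunit factor that joins the small ribosomal subunit to mRNA, and eIF3d is the subunit that can bind the 5′ cap itself, where the cap-binding protein eIF4E normally binds. Thapsigargin empties the endoplasmic reticulum (ER) of calcium by inhibiting its SERCA pump, and the stress of misfolded ER proteins that follows activates the integrated stress response (ISR). In the ISR, phosphorylation of eIF2 lowers general translation while the mRNA of the transcription factor ATF4 is translated, and eIF3d is known for cap-dependent translation of mRNAs such as JUN. In Subunit-Seq, eIF3d is pulled down by its HA tag, its cap-binding domain is cut free with TEV protease and other RNA is removed by enzymes, so the IP libraries read the RNA that remains.

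The reads behind the values numbered 16860637 and 15816031 in IP Tg, against 5102852 and 12027931 in input Tg. Between 13156 and 13799 genes reached 1 RPKM in the IP Tg libraries, against 8503 to 10487 in the input Tg libraries. Mitochondrial rRNA and tRNA took 0.410% and 0.286% of the reads in IP Tg, against 19.9% and 9.42% in input Tg. Ribosomal protein mRNAs took 12.3% and 17.2% of reads in IP Tg, against 28.1% and 36.1% in input Tg. The 95% Wilson intervals of these shares reach at most 0.039 percentage points either way and cover counting error only. Of 10 genes that HEK293T cells express, all were at 1 RPKM or more in both IP Tg libraries and 9 and 8 in the input Tg libraries. Markers of blood, liver, muscle and fibroblast cells summed to 3.72 and 8.61 RPKM over 18 genes in IP Tg, against 4.05 and 1.32 in input Tg. Of the 18, 9 and 11 were listed at 0 in IP Tg, against 11 and 15 in input Tg. PTPRC, CD3E, LYZ and APOB were at 0 in all 8 libraries, whereas the hemoglobin gene HBA1 had 0.284 and 3.79 RPKM in IP Tg, against 2.35 and 0.498 RPKM in input Tg. A listed 0 does not by itself show absence, since EEF1G, an elongation factor subunit of every cell, was also listed at 0 in all 8. In IP DMSO replicate 1 the same 18 genes summed to 92.3 RPKM, of which the collagen gene COL1A1 made up 49.9, against at most 2.89 for COL1A1 in any other library. That library enters the shared estimate of spread and the comparison with DMSO, and its part in them was not tested beyond leaving it out. In bulk libraries, cells of another type and a change of RNA within the cells cannot be told apart.

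As RPKM, which depends on the share of a library's reads, most genes were higher in IP Tg than in input Tg. The median difference over all members was 0.87 on the scale of log2(RPKM + 1), and it was 0.85 in replicate 1 and 0.84 in replicate 2. On that scale 8181 of 9813 genes were above 0. When the values were rescaled without mitochondrially encoded genes, the all-gene median was 0.68. The part of library composition in the remaining shift was not tested. Differences were tested gene by gene with limma on all 8 Subunit-Seq libraries with the replicate number as a block, and a gene is called where the Benjamini-Hochberg adjusted p is under 0.05. In this test 1432 genes were called higher in IP Tg (14.6% of those tested) and 159 lower (1.62%). Since the median itself lay at 0.87, differences of gene groups are given below relative to it. When each library was first centred on its own median, 113 genes were called higher (1.15%) and 259 lower (2.64%). All of the 113 and 128 of the 259 were among the calls made without centring, none in the opposite direction. Both IP Tg values lay above both input Tg values in 6346 genes (64.7%) and below both in 623 genes (6.35%).

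The counts depended on each Tg library. Without IP Tg replicate 1, IP Tg replicate 2, input Tg replicate 1 or input Tg replicate 2, the genes called higher numbered 218, 36, 76 and 183 in turn, and those called lower 61, 99, 38 and 117. Leaving out input DMSO replicate 1 or 2 gave 2745 and 2734 called higher, and leaving out IP DMSO replicate 2 gave 946. Without the replicate block 24 were called higher and 12 lower, and with each gene's own spread in place of the pooled one no gene was called, while 1724 had an unadjusted p under 0.05. Nothing in the labels says that the 2 libraries of a group came from separate cultures. The p-values measure only a spread between these libraries that is pooled across genes, not the spread of each gene's own replicates. RN7SL2, for example, had differences of -8.01 in replicate 1 and -3.66 in replicate 2 but an SE of 0.37 in the limma fit. The 2 replicates gave differences that correlated across the 9813 genes with a Pearson r of 0.55, and 6706 genes (68.3%) lay on the same side of the all-gene median in both.

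**Figure D1:**
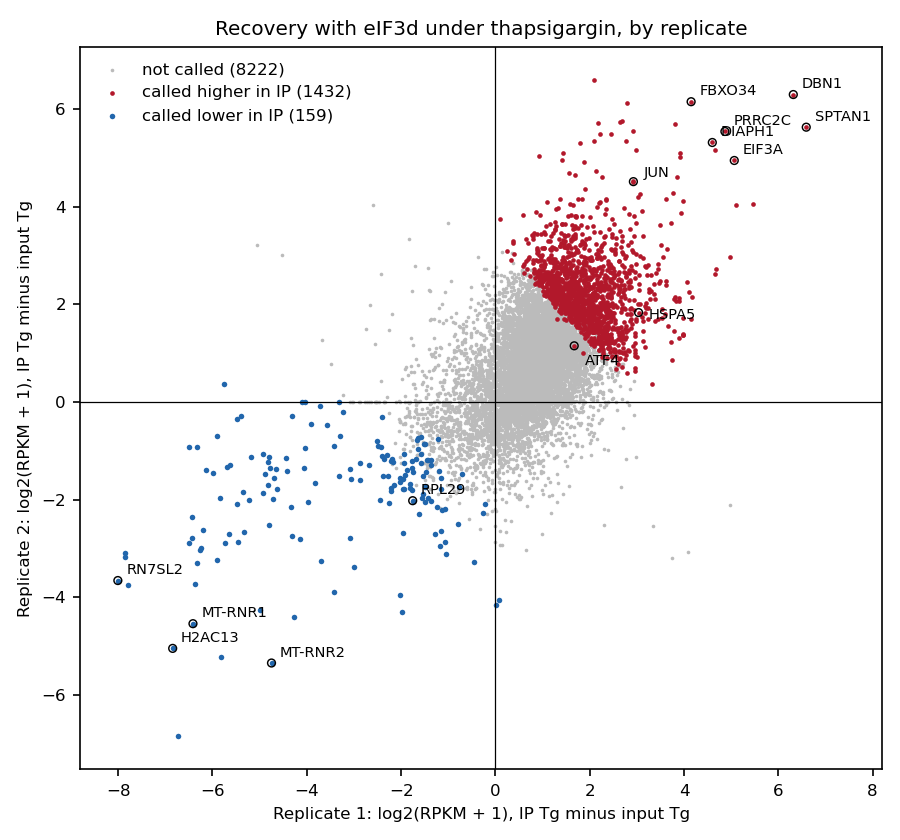
Difference between IP Tg and input Tg in replicate 1 (x axis) and replicate 2 (y axis) for 9813 genes, in log2(RPKM + 1). The 1432 genes called higher (red) lie at the upper right and the 159 called lower (blue) mostly at the lower left, where replicate 1 reaches further below 0 than replicate 2.

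The greatest differences among the genes called higher included those of DBN1, SPTAN1, DIAPH1 and EIF3A. DBN1 (drebrin, an actin-binding protein; chromosome 5, 177456610 to 177473634) stood at 555 and 680.4 RPKM in IP Tg, against 5.97 and 7.68 RPKM in input Tg. Its difference was 6.31 (SE 0.64, adjusted p = 1.04e-19) in the limma fit. The 2 groups lay far apart and the replicates of each were close.

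SPTAN1, which codes for the alpha chain of non-erythroid spectrin, the scaffold under the cell membrane (chromosome 9, 128552587 to 128633662), had 188 and 102 RPKM in IP Tg, against 0.954 and 1.096 RPKM in input Tg, a difference of 6.11 (SE 0.67, adjusted p = 5.34e-17) by limma. It was near 1 RPKM in both inputs and far above that in both IP Tg libraries. DIAPH1, a formin that nucleates actin filaments (chromosome 5, 141515021 to 141619000), had 84.5 and 105 RPKM in IP Tg, against 2.52 and 1.67 RPKM in input Tg, a difference of 4.96. Here too both IP values lay far above the higher input. EIF3A, the largest subunit of eIF3 itself (chromosome 10, 119033670 to 119080817), had 403 and 156 RPKM in IP Tg, against 11.1 and 4.11 RPKM in input Tg, a difference of 5.01 (SE 0.66, adjusted p = 1.9e-11) by limma. PRRC2C (chromosome 1, 171485530 to 171593511), a large proline-rich protein of stress granules, had 270.0 and 90.2 RPKM in IP Tg, against 8.28 and 0.962 RPKM in input Tg, and here replicate 1 was higher than replicate 2 in both groups. FBXO34, an F-box protein (chromosome 14, 55271421 to 55443049), had 54.7 and 135 RPKM in IP Tg, against 2.13 and 0.925 RPKM in input Tg. Of the 10 greatest differences, 2 belonged to Ensembl genes without a symbol.

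The 6 genes named here and the 2 Ensembl genes were each called in all 8 fits that left out 1 library and also after median centring. Together the 10 genes made up 1.495% and 1.04% of the reads of IP Tg, against 0.0305% and 0.0137% of the reads of input Tg. The choice of these genes by their differences in the same libraries fixes the direction of this contrast. Where input values were near 1 RPKM, the pseudocount of 1 understates their ratio. In DMSO cells the IP minus input differences were 6.002 for DBN1, 5.35 for SPTAN1, 4.88 for EIF3A and 5.29 for DIAPH1. For DBN1 the difference under Tg minus the difference in DMSO was 0.30 (95% interval -1.46 to 2.07), and for SPTAN1 it was 0.76 (95% interval -1.09 to 2.61).

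**Figure D2:**
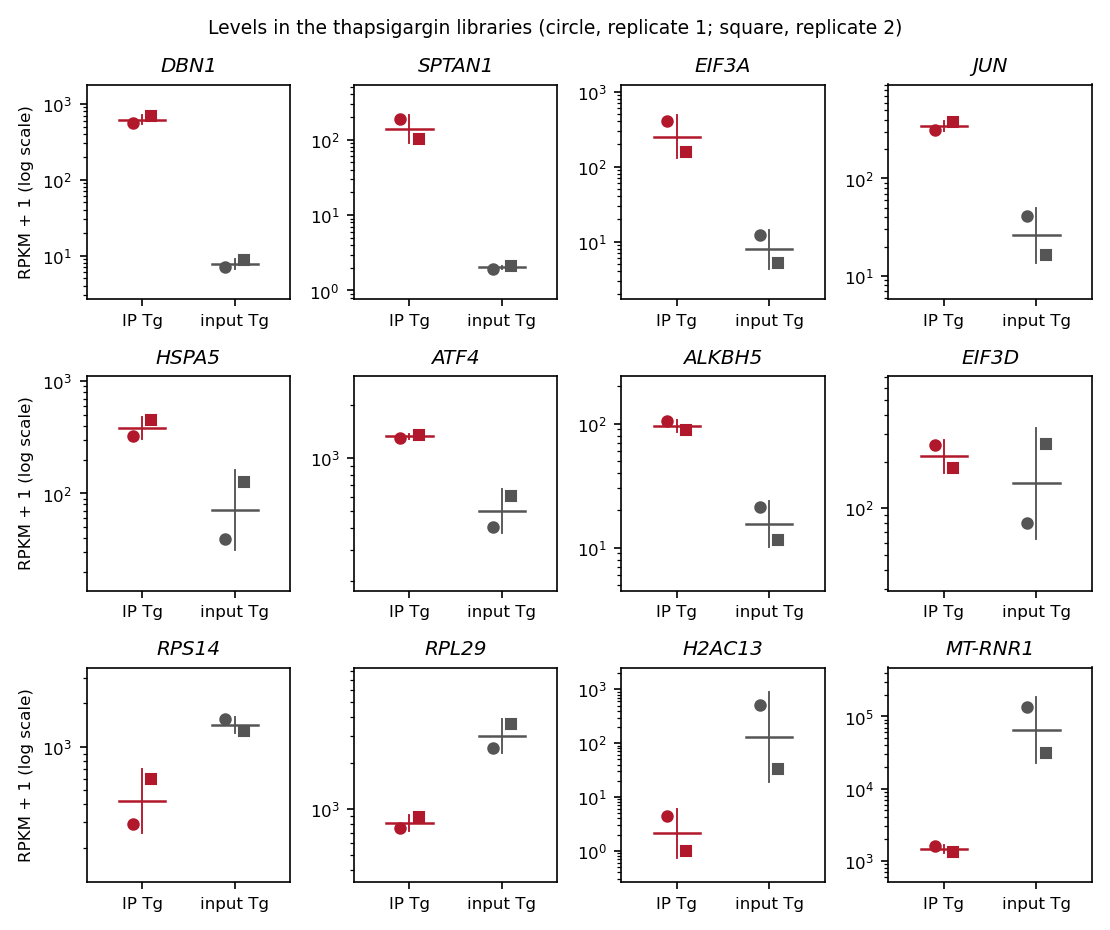
RPKM + 1 on a log axis in the 2 IP Tg libraries (red, left) and the 2 input Tg libraries (grey, right) for 12 genes. Circles are replicate 1, squares replicate 2, horizontal lines the mean and vertical lines the SD of the log values (n = 2). DBN1, SPTAN1 and EIF3A lie far above input, ATF4 by less, EIF3D overlaps its input, and RPS14, RPL29, H2AC13 and MT-RNR1 lie below.

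The annotated starts of these mRNAs are shown beside those of ribosomal protein mRNAs, which were lower in IP Tg, because eIF3d was captured at the cap and the first bases of the transcript lie next to it. Each line gives the 20 bases before and, in capitals, the first 10 bases after the first listed RefSeq start (GRCh38.p14), 5′ to 3′ on the gene's strand; DBN1, FBXO34 and ATF4 have 2 listed starts.
DBN1 (chr5:177473625-177473654, minus strand): gccgctggctcgctcggctcGCGACGCTGC
SPTAN1 (chr9:128552567-128552596, plus strand): ggcggggcgcgcgcgtcgccGCCACTACCC
PRRC2C (chr1:171485510-171485539, plus strand): tacgtaggggctggctagccGCCATCTTGC
FBXO34 (chr14:55271401-55271430, plus strand): gccgccgcgccgcgctgggtGCTCGGTCCG
DIAPH1 (chr5:141618991-141619020, minus strand): ggcggggcgcggcggctggcTAAAGAGCGA
JUN (chr1:58784038-58784067, minus strand): tgagctcgggctggataaggGCTCAGAGTT
ATF4 (chr22:39520539-39520568, plus strand): ggccggcgggcggccacggcAGCCATTTCT
RPS14 (chr5:150449730-150449759, minus strand): tcgctccgccccctcccactCTCTCTTTCC
RPS16 (chr19:39435940-39435969, minus strand): ccagggtggcccctagctttCCTTTTCCGG
RPL39 (chrX:119791621-119791650, minus strand): gctcgttcttccgccagcttCCCTCCTCTT
RPL29 (chr3:51995886-51995915, minus strand): tgctgcaccgcagcccctttCTCTTCCGGT
RPL28 (chr19:55385912-55385941, plus strand): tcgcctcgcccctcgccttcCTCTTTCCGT

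The 5 ribosomal protein starts begin with C inside a run of C and T, the terminal oligopyrimidine (TOP) start known for mRNAs of the translation apparatus, while DBN1, SPTAN1, PRRC2C, FBXO34 and JUN begin with G. Over the 40 bases centred on the first listed start, a run of at least 10 pyrimidines (C or T) was found in 42 of the 59 tested ribosomal protein genes that have an entry (71.2%). The share was 8.35% over all 27305 entries, 8.12% among the 1072 matched genes called higher and 35.9% among the 78 matched genes called lower, which include ribosomal protein genes. The letters CTTT occurred on the gene's strand in 67.8% of the 59 and in 15.5% of all entries, and their reverse complement AAAG in 6.78% and 12.8%. Among the 7017 tested genes with an entry, CTTT occurred in 11.9% and AAAG in 7.54%, so AAAG was about as frequent there as in the 59. With both ribosomal protein lists set aside, genes with a pyrimidine run of 14 or more bases had a median difference of 1.04 (149 genes), against 0.96 in genes whose longest run was under 6 (4619 genes). A match of letters is a description of the sequence, and the starts used in these cells were not measured.

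Long mRNAs of the cytoskeleton and of other giant proteins were recovered above the median, so far as their inputs could be read. Of 28 listed long cytoskeletal genes only 13 passed the input limit, since the others were below 1 RPKM in input. Of the 13, 6 were called higher and none lower, against 14.6% and 1.62% of all members, and their median lay 0.64 above the all-gene median. After centring 3 were called. Beyond SPTAN1, the 6 included the non-muscle myosin heavy chains MYH10, at 43.1 and 39.8 RPKM in IP Tg, against 4.11 and 1.71 RPKM in input Tg, and MYH9, at 40.7 and 25.7 RPKM in IP Tg, against 4.78 and 3.87 RPKM in input Tg. FLNA, filamin A, had 29.8 and 52.4 RPKM in IP Tg, against 9.37 and 6.39 RPKM in input Tg. MAP1B, a microtubule-associated protein, had 18.2 and 26.02 RPKM in IP Tg, against 6.44 and 0.52 RPKM in input Tg, with a high and a low input. Without IP Tg replicate 2 only 2 of the 13 were called, and without IP Tg replicate 1, input Tg replicate 1 or input Tg replicate 2, 4 each. The list of giant coding mRNAs gave 2 of 11 tested called higher (PRKDC and GCN1), a share near the 14.6% of all members. Of the 11, 10 lay above the all-gene median, and 19 listed genes were below the input limit. After centring no giant mRNA was called. No giant mRNA was called when any 1 of the 4 Tg libraries was left out, 1 without either IP DMSO library, and 5 without either input DMSO library.

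The difference rose with gene length across all members. This is the length behind the RPKM values and was not measured on the mRNAs of these cells. It was 6933 bases for RPL28 and 5099 bases for RPS14. When 9776 genes were divided into 5 groups by the gene length behind their RPKM values, the median difference was 0.18 in the shortest group (up to 1732 bases), then 0.67, 0.99, 1.053 and 1.17 in the longest group (from 6779 bases). The shares called higher were 7.31%, 11.3%, 15.3%, 17.9% and 21.4% in the same order, and the shares called lower 5.88%, 1.43%, 0.460%, 0.205% and 0.102%. Spearman's rho between length and difference was 0.38 over the 9776 genes, 0.29 in replicate 1 and 0.36 in replicate 2. Over 8082 protein-coding genes alone it was 0.32. The median level in input Tg was 5.41, 8.31, 4.83, 3.28 and 2.37 RPKM in the same order, and its part in this relation was not tested. In DMSO cells the medians were -0.02, 0.72, 1.12, 1.24 and 1.33 in the same order.

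**Figure D3:**
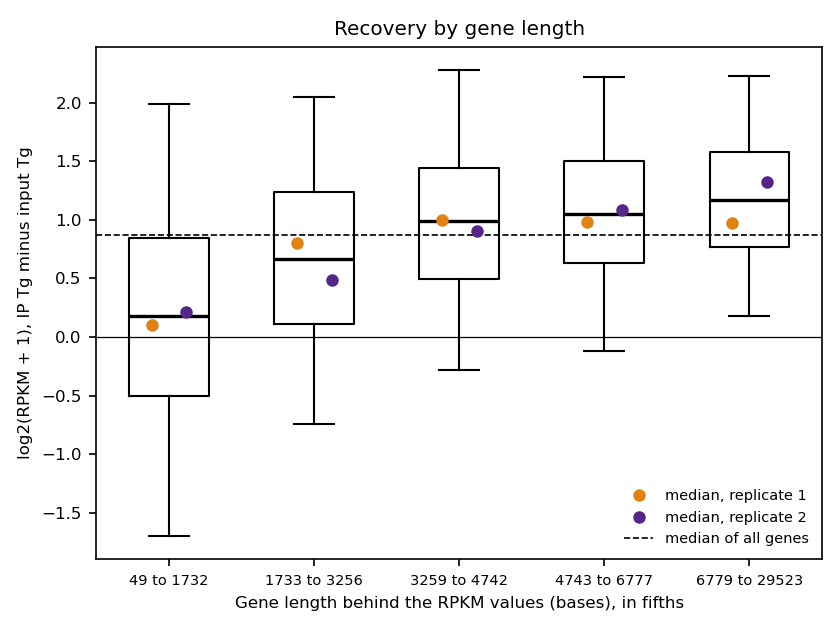
Difference between IP Tg and input Tg, in log2(RPKM + 1), for 9776 genes in 5 groups of gene length. Boxes give the quartiles and the median, whiskers the 5th and 95th percentiles, and dots the medians of replicate 1 (orange) and replicate 2 (purple). The medians run from 0.18 in the shortest to 1.17 in the longest group.

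The mitochondrial rRNAs and 7SL RNA stood at the other end. The mitochondrial rRNAs, which are transcribed and kept inside the organelle, were far lower in IP Tg than in input Tg. MT-RNR1 and MT-RNR2 still ranked 16th and 19th by mean RPKM among the members in IP Tg. MT-RNR1, the 12S rRNA (mitochondrial genome, 648 to 1601), had 1602 and 1341 RPKM in IP Tg, against 136737 and 31243 RPKM in input Tg, a difference of -5.48 (SE 0.25, adjusted p = 6.09e-105) by limma. MT-RNR2, the 16S rRNA (1671 to 3229), had 1646 and 1013 RPKM in IP Tg, against 44262 and 41258 RPKM in input Tg, a difference of -5.05 (SE 0.26, adjusted p = 9.68e-79). The IP values of both genes lay far below their lower input.

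The only mitochondrial tRNA that passed the input limit, MT-TP, had 63.7 and 34.4 RPKM in IP Tg, against 254 and 698 RPKM in input Tg and was called lower, so that all 3 tested mitochondrial rRNA and tRNA genes were lower (2 without IP Tg replicate 2). The mRNAs of the same genome stood nearer to their inputs. Of 13 mitochondrial mRNAs, 2 (MT-CO2 and MT-CO3, subunits of cytochrome c oxidase) were called lower, and the list's median lay at -1.22 relative to all genes. That median was -0.23 in replicate 1 and -2.19 in replicate 2. After centring none of the 13 was called. MT-CO2 had 2156 and 3105 RPKM in IP Tg, against 2502 and 13279.9 RPKM in input Tg, and MT-CO3 had 1495 and 2769 RPKM in IP Tg, against 1784 and 13312 RPKM in input Tg. In both, replicate 1 of the IP was close to its input and only replicate 2 was far below it, and both turned positive under quantile normalization, to 0.63 and 0.15. Neither stayed called without IP Tg replicate 2, input Tg replicate 1, input Tg replicate 2 or either input DMSO library, whereas 6 of the 13 were called lower without IP Tg replicate 1.

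7SL RNA, the RNA polymerase III transcript that forms the core of the signal recognition particle, fell in the same way. RN7SL2 (chromosome 14, 49862551 to 49862849) had 415 and 529 RPKM in IP Tg, against 106974 and 6682 RPKM in input Tg, a difference of -5.83 (SE 0.37, adjusted p = 8.72e-53) by limma. The inputs differed widely from each other, while the IP libraries were alike and below both. RN7SL3 had 26.98 and 19.9 RPKM in IP Tg, against 6188 and 280.3 RPKM in input Tg, and the copies RN7SL5P and RN7SL4P had differences of -5.52 and -5.47. Of 8 tested 7SL genes and copies 5 were called lower and none higher. These genes are near-identical, so the split of reads between them is uncertain. On the list of 7SL and other structured noncoding RNAs 8 were tested and RN7SL2 alone was called, with 2 called lower without IP Tg replicate 2 or input Tg replicate 1 and 3 without input Tg replicate 2. Among other noncoding RNA classes, 5 of 27 snoRNAs, 3 of 14 snRNAs and 1 of 2 vault RNAs were called lower and none higher, with median differences of -1.22 for snoRNAs and -1.84 for snRNAs in replicate 1 but 0 for both in replicate 2. Of 26 miRNA genes 5 were called higher and 2 lower, and of 331 lncRNAs 71 were called higher and 2 lower. Over all members 14.6% were called higher and 1.62% lower.

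Replication-dependent histone mRNAs, which are capped but end in a stem-loop in place of a poly(A) tail, had the lowest median of the lists of coding genes. Of 38 tested members, 36 were called lower and none higher, and the median lay at -4.50 relative to all genes, at -6.33 in replicate 1 and -2.84 in replicate 2. H2AC13 (chromosome 6, 27808173 to 27808667) had 3.42 and 0 RPKM in IP Tg, against 507 and 32.1 RPKM in input Tg, a difference of -5.95 (SE 0.67, adjusted p = 6.14e-16) by limma. H4C3 had 14.5 and 0 RPKM in IP Tg, against 874 and 36.1 RPKM in input Tg, and H2AC20 had 5.47 and 6.48 RPKM in IP Tg, against 516 and 72.5 RPKM in input Tg. In all 3 both IP values lay below both inputs, while input Tg replicate 1 stood far above input Tg replicate 2. All histones together took 0.0186% and 0.0225% of reads in IP Tg, against 0.751% and 0.0789% in input Tg. The calls numbered 11 without input Tg replicate 1, 17 without IP Tg replicate 1, and 34 to 36 in the 6 other such fits. Histone genes are near-identical within each type, so reads may be divided between them.

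The stress genes that thapsigargin acts on were recovered above the median, some of them strongly. Of 35 tested ISR target genes, 9 were called higher (25 of 35 above the all-gene median) and none lower, with a list median 0.47 above all genes. Over all members 14.6% were called higher. In DMSO cells the list median lay 0.27 above all genes and 11 of the 35 were called higher, against 21.4% of all members. ATF4, the central transcription factor of the response (chromosome 22, 39520559 to 39522686), had 1292 and 1349 RPKM in IP Tg, against 405 and 608 RPKM in input Tg, a difference of 1.41 (SE 0.46, adjusted p = 0.0249) by limma. Both IP values lay above both inputs, and the mRNA ranked 21st by mean RPKM among the members in IP Tg and 117th in input Tg. After centring, ATF4 stood at 0.34 (adjusted p = 0.762), and its call was lost without IP Tg replicate 2, input Tg replicate 1 or either input DMSO library.

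CEBPB, a transcription factor that pairs with ATF4 (chromosome 20, 50190583 to 50192690), had 104 and 229 RPKM in IP Tg, against 15.03 and 26.99 RPKM in input Tg, a difference of 2.87 (SE 0.67, adjusted p = 0.000731) by limma. SLC38A2, an amino acid transporter, had 23.95 and 55.03 RPKM in IP Tg, against 4.39 and 4.02 RPKM in input Tg. STC2, a secreted glycoprotein, had 68.6 and 56.95 RPKM in IP Tg, against 11.8 and 11.1 RPKM in input Tg. In each of these genes the lower IP value was well above the higher input. ATF5, a relative of ATF4, had 13.9 and 22.9 RPKM in IP Tg, against 2.99 and 2.67 RPKM in input Tg, a difference of 2.30. After centring SLC38A2 alone of the 35 was called. The other 5 targets called without centring were SLC7A5, SLC1A5 and SLC7A1, which carry amino acids, VEGFA and BBC3.

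DDIT3, which codes for CHOP, had 52.1 and 206 RPKM in IP Tg, against 32.5 and 50.1 RPKM in input Tg. Its difference of 1.34 (SE 0.67, adjusted p = 0.134) did not pass, and IP Tg replicate 1 lay at the level of the higher input. TRIB3, a CHOP target that restrains the response, had 89.9 and 117 RPKM in IP Tg, against 65.3 and 127 RPKM in input Tg, with the groups overlapping. ATF3 had 61.9 and 38.03 RPKM in IP Tg, against 30.1 and 54.5 RPKM in input Tg, also overlapping. Of 8 tested ISR transcription factors, 3 were called higher (CEBPB, ATF5 and ATF4) and none lower, and after centring none was called. Without IP Tg replicate 1, IP Tg replicate 2, input Tg replicate 1 or input Tg replicate 2, the called ISR targets numbered 2, 0, 0 and 1, and without input DMSO replicate 1 or 2 they numbered 18 and 17. The called factors numbered 0 without IP Tg replicate 2 or input Tg replicate 1.

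Upstream of ATF4, 4 of 12 kinases and phosphatase regulators of eIF2alpha were called higher and none lower, against 14.6% and 1.62% of all members. They were PPP1CB, a catalytic subunit of the phosphatase, PPP1R15B, its constitutive targeting subunit, the kinase activator GCN1 and the kinase inhibitor DNAJC3. After centring none of the 12 was called. PPP1R15B had 13.8 and 15.2 RPKM in IP Tg, against 6.45 and 1.77 RPKM in input Tg, a difference of 1.77 (SE 0.64, adjusted p = 0.0401) by limma. EIF2AK4, the amino acid sensing kinase GCN2 that GCN1 activates, had 7.66 and 5.02 RPKM in IP Tg, against 2.75 and 0.584 RPKM in input Tg. Its groups did not overlap, but its difference of 1.57 (SE 0.61, adjusted p = 0.0569) did not pass. No gene of this list was called when any 1 of the 4 Tg libraries or either IP DMSO library was left out, and 7 were called without either input DMSO library. Of 12 tested genes on the list of eIF2 and its exchange factor eIF2B none was called. Of the 12, 10 lay below the all-gene median and 2 above it, among them the eIF2 subunit EIF2S3 with a difference of 1.28. EIF2S2, the beta subunit of eIF2, had 191 and 149 RPKM in IP Tg, against 87.9 and 100.2 RPKM in input Tg, a difference of 0.84 (SE 0.61, adjusted p = 0.299).

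Chaperones of the ER lumen were recovered above the median too. Of 24 tested, 9 were called higher and none lower, and 17 lay above the all-gene median, while 14.6% of all members were called higher. The list median lay 0.50 above all genes under Tg and 0.63 above them in DMSO cells. In DMSO 13 of the 24 were called higher, against 21.4% of all members, so this recovery was not particular to Tg. HSPA5, the chaperone BiP (chromosome 9, 125234853 to 125241343), had 324 and 452 RPKM in IP Tg, against 38.6 and 126 RPKM in input Tg, a difference of 2.43 (SE 0.63, adjusted p = 0.00305) by limma. HSP90B1, which codes for GRP94, had 295 and 377 RPKM in IP Tg, against 25.6 and 68.5 RPKM in input Tg, a difference of 2.96. The disulfide isomerases PDIA4 and PDIA3 had differences of 2.21 and 2.14. In all 4 genes both IP values exceeded both inputs, and input Tg replicate 2 exceeded input Tg replicate 1. After centring none of the 24 was called higher and 1 was called lower. Leaving out IP Tg replicate 1, IP Tg replicate 2 or input Tg replicate 1 left 0 called, and leaving out input Tg replicate 2 left 2 and either IP DMSO library 4.

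Genes of ER translocation, glycosylation and degradation were divided. Of 34 tested, 3 were called higher and 1 lower, against 14.6% and 1.62% of all members. Of the 34, 16 lay above the all-gene median and 18 below, and the list median lay at -0.12 relative to all genes. After centring none was called higher and 3 lower. SEC62, an accessory subunit of the translocon, had 9.76 and 36.1 RPKM in IP Tg, against 2.47 and 2.01 RPKM in input Tg, and its partner SEC63 had 23.99 and 13.8 RPKM in IP Tg, against 3.83 and 3.795 RPKM in input Tg. SYVN1, the ubiquitin ligase of ER-associated degradation, had a difference of 1.84. SSR4, a subunit of the translocon-associated complex, was the 1 gene called lower. It had 77.8 and 187 RPKM in IP Tg, against 318 and 550.2 RPKM in input Tg, a difference of -1.78 (SE 0.57, adjusted p = 0.0215) by limma. The count of higher calls was 0 without IP Tg replicate 2, input Tg replicate 1 or input Tg replicate 2, 1 without IP Tg replicate 1, and 10 without either input DMSO library. SSR4 was not called when any 1 of the 4 Tg libraries was left out.

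**Figure D4:**
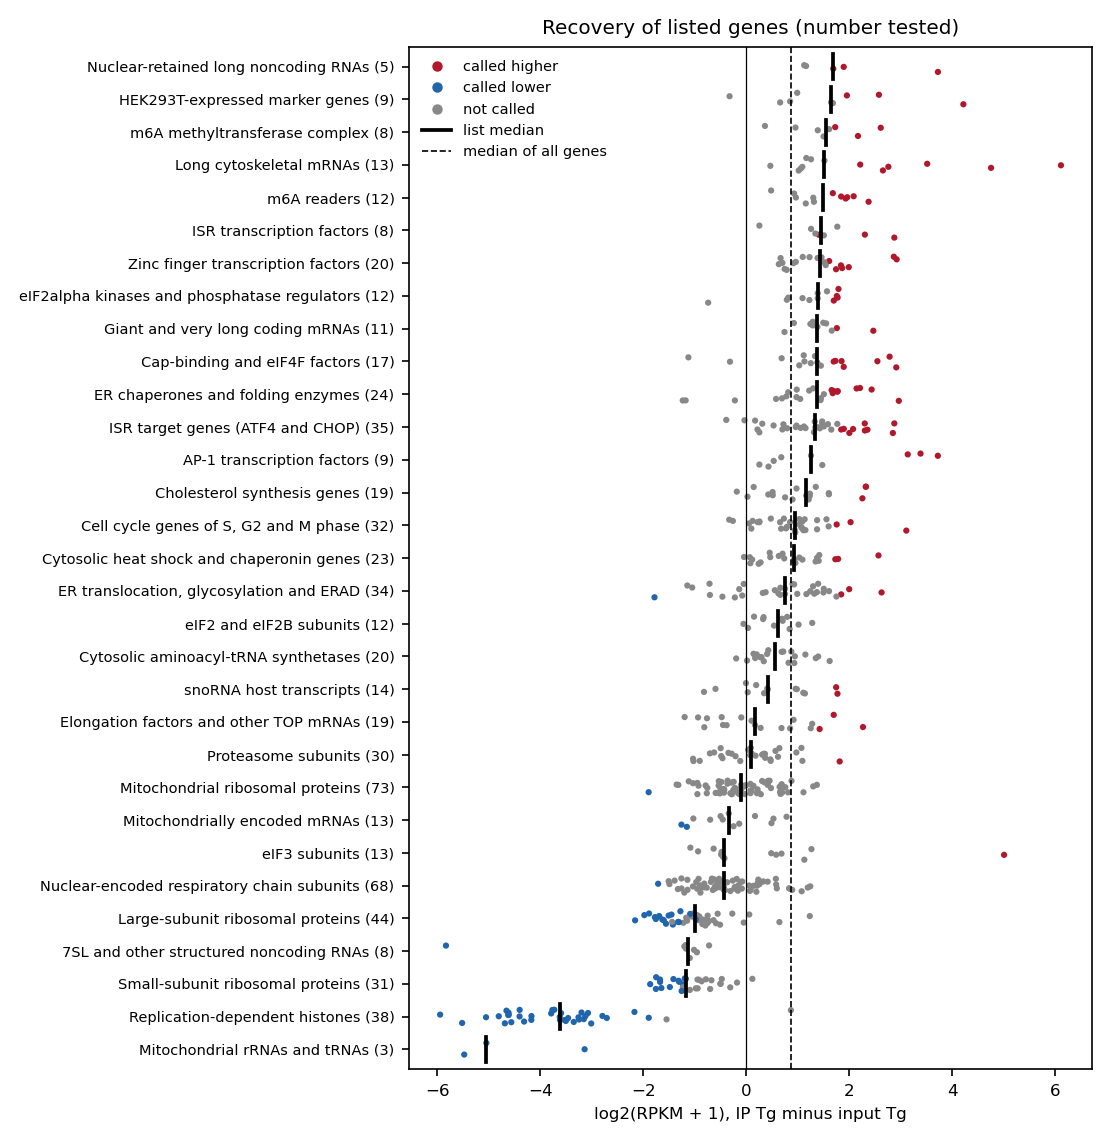
Difference between IP Tg and input Tg, in log2(RPKM + 1), for the tested members of 31 gene lists (points) with the list median (bar), the median of all genes (dashed line) and 0 (solid line). Red points were called higher and blue points lower, and the number tested stands beside each list. Mitochondrial rRNA, histones, 7SL and other structured noncoding RNAs and both ribosomal protein lists lie lowest, and no list with a median above the dashed line holds a member called lower.

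Translation factors did not move as 1 group. Of the 13 eIF3 subunits, EIF3A alone was called, and 10 of 13 lay below the all-gene median, with a list median of -1.30 relative to it. EIF3D, the subunit pulled down (chromosome 22, 36510855 to 36529166), had 256 and 181 RPKM in IP Tg, against 79.9 and 257 RPKM in input Tg, a difference of 0.58 (SE 0.59, adjusted p = 0.471) with overlapping groups. Reads of the tagged and the native EIF3D mRNA cannot be told apart here. EIF3B, which with EIF3A forms the core of the complex, had 57.4 and 74.1 RPKM in IP Tg, against 21.8 and 32.3 RPKM in input Tg. EIF3G, a small RNA-binding subunit, had 79.96 and 44.1 RPKM in IP Tg, against 107 and 151 RPKM in input Tg, with the groups apart in the opposite direction and a difference of -1.09 (SE 0.62, adjusted p = 0.19) that did not pass. EIF3A thus stood at 5.01, while the other 12 subunits ranged between -1.09 and 1.26. After centring EIF3A was called higher and 1 other subunit lower. EIF3A and 1 other subunit were called without either input DMSO library.

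Factors of the cap and of its complex eIF4F, the usual route to cap-dependent initiation, were recovered above the median. Of 17 tested, 7 were called higher and none lower, and 14 lay above the all-gene median, while 14.6% of all members were called higher. After centring none of the 17 was called higher and 1 was called lower. EIF4G1, the scaffold of eIF4F (chromosome 3, 184314606 to 184335358), had 175 and 67.2 RPKM in IP Tg, against 17.9 and 10.2 RPKM in input Tg, a difference of 2.91 (SE 0.66, adjusted p = 0.000558) by limma. LARP1, which binds capped TOP mRNAs, had 91.8 and 32.5 RPKM in IP Tg, against 20.9 and 1.997 RPKM in input Tg, with input Tg replicate 1 far above replicate 2. EIF4EBP2, an inhibitor of eIF4E, had 28.4 and 26.6 RPKM in IP Tg, against 14.7 and 2.76 RPKM in input Tg. Its relative EIF4EBP1 was lower in both IP libraries than in both inputs, with 576 and 784 RPKM in IP Tg, against 1199.9 and 1791 RPKM in input Tg and a difference of -1.12 (SE 0.46, adjusted p = 0.0691) that did not pass. EIF4E itself had 4.59 and 3.12 RPKM in IP Tg, against 3.04 and 1.21 RPKM in input Tg, a difference of 0.69 that did not pass. The number called was 1, 0, 0 and 1 without IP Tg replicate 1, IP Tg replicate 2, input Tg replicate 1 and input Tg replicate 2, then 3 and 4 without IP DMSO replicate 1 and 2, and 10 without input DMSO replicate 1 or 2.

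Ribosomal protein mRNAs, the most abundant mRNAs of these libraries, were under-recovered in near unison. Of 31 small-subunit genes 15 were called lower and none higher, and all 31 lay below the all-gene median, with a list median of -2.05 relative to it. Of 44 large-subunit genes 17 were called lower and none higher, and 43 lay below the all-gene median, with a list median of -1.87. After centring 9 and 13 members of the 2 lists were called lower. RPL29 (chromosome 3, 51993522 to 51995895) had 744 and 884 RPKM in IP Tg, against 2511 and 3595 RPKM in input Tg, a difference of -1.89 (SE 0.37, adjusted p = 3.02e-05) by limma. RPS14 (chromosome 5, 150442635 to 150449739) had 292 and 600.5 RPKM in IP Tg, against 1555 and 1292 RPKM in input Tg, a difference of -1.76 (SE 0.43, adjusted p = 0.00171), and RPS16 had 607 and 865 RPKM in IP Tg, against 2777 and 1934 RPKM in input Tg. The pyrimidine-rich starts of these genes are printed above. RPL39 and RPL28, whose starts are also shown, had differences of -1.98 and -1.77. Both IP values lay below both inputs in 26 of the 31 and 34 of the 44 genes, against 6.35% of all members. Ribosomal protein genes have many processed pseudogenes, so reads may be divided between them.

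The calls rested on the inputs. None of the 31 and none of the 44 was called without input Tg replicate 1, and 1 and 5 were called without input Tg replicate 2. Without IP Tg replicate 1 the counts were 4 and 9, and without IP Tg replicate 2 they were 12 and 10. The small-subunit count was 7 and 8 without input DMSO replicate 1 and 2. The medians stayed on the same side, at -2.34 and -1.66 for the small subunit and -2.002 and -1.88 for the large subunit in replicates 1 and 2 taken alone.

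Elongation factor and other genes known for TOP starts had a list median of -0.71 relative to all genes, at 0.04 in replicate 1 and -1.10 in replicate 2. Of the 19 tested, 13 lay below the all-gene median and 3 were called higher and none lower, a share of higher calls near the 14.6% of all members. After centring none was called higher and 1 lower. NCL, nucleolin, had 178 and 106 RPKM in IP Tg, against 43.2 and 17.7 RPKM in input Tg, a difference of 2.27 (SE 0.65, adjusted p = 0.00837) by limma. PABPC1, the poly(A)-binding protein, had 542 and 191 RPKM in IP Tg, against 122 and 79.7 RPKM in input Tg, and HNRNPA1, a splicing factor, had a difference of 1.42. EEF1A1, the most abundant elongation factor, had 1568 and 1078 RPKM in IP Tg, against 1041 and 1285 RPKM in input Tg, with overlapping groups. EEF1B2, its exchange factor, had 335 and 548 RPKM in IP Tg, against 571 and 930.0 RPKM in input Tg, a difference of -0.76 that did not pass. None was called higher when any 1 of the 4 Tg libraries was left out, 1 without IP DMSO replicate 1, and 4 without either input DMSO library. The list's median changed sign relative to all genes under quantile normalization, to 0.18.

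Nuclear-encoded genes of mitochondrial function lay low with few calls. Of 73 mitochondrial ribosomal protein genes, 69 lay below the all-gene median, but only MRPS18A was called lower, at 11.6 and 4.14 RPKM in IP Tg, against 27.01 and 31.02 RPKM in input Tg. Of 68 respiratory chain subunits, 64 lay below it, and NDUFB11 alone was called lower, at 88.6 and 228 RPKM in IP Tg, against 414 and 529 RPKM in input Tg. Proteasome subunits gave 26 of 30 below the all-gene median and 1 called higher, PSMD1, a scaffold subunit of the regulatory particle. After centring 9, 9 and 2 members of these lists were called lower. MRPS18A, NDUFB11 and PSMD1 were each not called when any 1 of the 4 Tg libraries was left out, nor MRPS18A and PSMD1 without either IP DMSO library, and without either input DMSO library 5 respiratory chain genes were called lower. The 3 list medians lay at -0.98, -1.31 and -0.78 relative to all genes. Their median gene lengths were 2539, 2469 and 3424 bases, against 3960 over all members. The part of length in these low medians was not tested.

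Genes of the m6A pathway, which writes, removes and reads N6-methyladenosine in mRNA, were on the recovered side. Of 8 tested genes on the methyltransferase list 3 were called higher (RBM15B, ZC3H13 and METTL16). Of 12 readers 6 were called higher, and of the demethylases ALKBH5, while none was called lower. Over all members 14.6% were called higher. After centring no gene of the 3 lists was called. ALKBH5 (chromosome 17, 18183828 to 18209954) had 103 and 87.9 RPKM in IP Tg, against 20.1 and 10.4 RPKM in input Tg, a difference of 2.63 (SE 0.67, adjusted p = 0.00239) by limma. RBM15B, an RNA-binding adaptor of the writer complex, had 115 and 28.3 RPKM in IP Tg, against 8.17 and 8.96 RPKM in input Tg. YTHDF1 and YTHDF2, cytoplasmic readers, had differences of 2.08 and 1.93, and both IP values of each exceeded both inputs. METTL3, the catalytic subunit, had 6.26 and 3.83 RPKM in IP Tg, against 3.69 and 3.53 RPKM in input Tg, a difference of 0.36 (SE 0.62, adjusted p = 0.68) that did not pass. METTL14 and FTO were below the input limit. The call of ALKBH5 was lost without IP Tg replicate 2, input Tg replicate 1 or input Tg replicate 2. Without IP Tg replicate 1, IP Tg replicate 2, input Tg replicate 1 or input Tg replicate 2 the writers called numbered 0, 0, 0 and 1 and the readers 1, 0, 0 and 0, and without either input DMSO library 6 and 7. Without either IP DMSO library the readers called numbered 3.

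Genes that carry m6A sites in the authors' deposited list for wild-type Tg cells, which come from a genotype other than HA-eIF3d-TEV, had a lower median difference than the rest. Among protein-coding members with a strand on record, 282 held at least 1 of the 1572 distinct sites within the gene span on its strand. Their median difference was 0.70, against 0.95 for the 6473 without a site. Of the 282, 48 were called higher (17.02%) and 18 lower (6.38%), and of the 6473, 964 higher (14.9%) and 59 lower (0.911%). In the longer list from cells with the eIF3d S528D, S529D form, the 1164 genes with a site had a median of 0.79, against 0.98 for the 5591 without. Genes with a site had a higher input level, with a median of 19.2 RPKM against 4.19 RPKM in the wild-type list, and its part in the difference was not tested. Within the 5 length groups the genes with a wild-type site had lower medians in the 4 shorter groups and a higher one in the longest, where the medians were 1.22 with a site and 1.15 without. The lists hold no depth or replicate.

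JUN, the mRNA for which eIF3d cap binding is best known, was among the more strongly recovered transcription factors. It had 314 and 374 RPKM in IP Tg, against 40.4 and 15.5 RPKM in input Tg (chromosome 1, 58780791 to 58784047), a difference of 3.72 (SE 0.64, adjusted p = 9.23e-07) by limma. Its relatives JUND, at 323 and 166 RPKM in IP Tg, against 24.9 and 18.2 RPKM in input Tg, and MAFG, at 53.02 and 22.4 RPKM in IP Tg, against 3.98 and 2.29 RPKM in input Tg, were the other 2 of 9 tested AP-1 genes to be called, and all 3 were called after centring too. The remaining 6 were not called, among them JUNB, at 9.06 and 6.43 RPKM in IP Tg, against 3.23 and 5.89 RPKM in input Tg. The count was 1 without IP Tg replicate 2, 2 without input Tg replicate 1 and 3 without each of the 6 other libraries. JUN itself lost its call without IP Tg replicate 2, and its difference ranged between 2.68 and 4.76 when 1 library was left out. JUN also holds 2 of the wild-type m6A sites.

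The further lists are read against the 14.6% of all members called higher. NORAD, a long noncoding RNA that acts in the cytoplasm although it stood on a list of nuclear-retained transcripts, had 108 and 75.3 RPKM in IP Tg, against 13.3 and 2.34 RPKM in input Tg, a difference of 3.72 (SE 0.67, adjusted p = 3.62e-06) by limma. Of 5 tested members of that list, 3 were called higher (NORAD, OIP5-AS1 and TUG1) and none lower. Of 20 zinc finger genes 7 were called higher, led by ZNF146 at 100.2 and 69.6 RPKM in IP Tg, against 17.3 and 5.82 RPKM in input Tg. Cytosolic chaperones gave 3 of 23 called higher, among them HSP90AA1 at 248 and 607 RPKM in IP Tg, against 66.8 and 62.6 RPKM in input Tg, and cholesterol synthesis genes 3 of 19, IDI1 and SQLE among them. Both shares are near that of all members. Cell cycle genes gave 3 of 32, of which CENPF, a long kinetochore protein, had 21.9 and 27.6 RPKM in IP Tg, against 3.13 and 1.13 RPKM in input Tg. Transcripts that host snoRNAs gave 2 of 14 called higher, SNHG3 and SNHG12, also near that of all members. Of 20 cytosolic aminoacyl-tRNA synthetases none was called in either direction, and 14 lay below the all-gene median. Of the HEK293T marker genes 3 of 9 were called higher, led by SOX4 at 45.7 and 83 RPKM in IP Tg, against 6.26 and 0.568 RPKM in input Tg. No member of these lists was called lower. After centring 1 nuclear-retained transcript, 1 cell cycle gene and 1 HEK293T marker were called higher, and none of the zinc finger, chaperone, cholesterol, snoRNA host or synthetase genes. Of the markers of other cell types 2 passed the input limit and neither was called.

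Calls in these further lists also hung on single libraries. Without IP Tg replicate 2, no zinc finger, heat shock, cholesterol, cell cycle, snoRNA host, noncoding or HEK293T marker gene was called. Without input Tg replicate 1 the counts in that order were 0, 0, 0, 1, 0, 1 and 1, without input Tg replicate 2 they were 0, 1, 0, 0, 0, 1 and 2, and without IP Tg replicate 1 they were 3, 1, 0, 1, 0, 1 and 1. Without either input DMSO library they were 11, 7, 7, 6, 2, 3 and 5, with 3 synthetases called higher. Without either IP DMSO library they were 4, 2, 3, 2, 0, 2 and 3.

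Few genes could be told apart in their recovery under Tg and in DMSO. The IP and input libraries of DMSO cells gave 2100 genes called higher (21.4%) and 172 lower (1.75%). Of the genes called higher under Tg, 1133 were also called in DMSO, 79.1% of the Tg calls and 54.0% of the DMSO calls. Of those called lower, 109 were shared, 68.6% of the Tg calls and 63.4% of the DMSO calls. The 2 differences rest on separate libraries but on 1 fit. Across the 9813 genes the Pearson r between replicate 1 under Tg and replicate 2 in DMSO was 0.63, and it was 0.66 the other way round, against 0.55 between the 2 replicates under Tg. The test of the difference itself called no gene more recovered under Tg and 6 less (0.0611%), while 86 genes had an unadjusted p below 0.05. With voom weights on recovered reads no gene was called, and 14 had an unadjusted p below 0.05.

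The 6 genes were RN7SL2, RN7SL3, RN7SL4P, RN7SL5P, MIR3929 and MT-RNR1. RN7SL2 was at 415 and 529 RPKM in IP Tg and at 475 and 639.8 RPKM in IP DMSO. Its inputs were at 106974 and 6682 RPKM under Tg and at 12054 and 204 RPKM in DMSO, so the inputs spread far more than the IP libraries. Counts of genes called less recovered were 3 without IP Tg replicate 1, 17 without input Tg replicate 2, 11 without IP DMSO replicate 1, 1 without IP DMSO replicate 2, and 0 without input Tg replicate 1 or either input DMSO library. Leaving out input Tg replicate 2 or IP DMSO replicate 1 also called 2 genes as more recovered under Tg.

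For the stress genes the difference between treatments was not resolved. For ATF4 the Tg difference minus the DMSO difference was -0.41 (95% interval -1.70 to 0.87), for HSPA5 -0.61 (95% interval -2.36 to 1.14), for JUN 0.62 (95% interval -1.15 to 2.39) and for CEBPB 0.17 (95% interval -1.68 to 2.02), so changes of 1 log2 unit either way lie within most of these intervals. The levels of CEBPB were higher under Tg in the IP and in the input alike. CEBPB was at 104 and 229 RPKM in IP Tg and 43.1 and 32.995 RPKM in IP DMSO, and at 15.03 and 26.99 RPKM in input Tg and 9.49 and 2.38 RPKM in input DMSO. Of the lists, the aminoacyl-tRNA synthetases lay at -0.32 relative to all genes under Tg and at 0.55 in DMSO. The ER translocation and degradation genes lay at -0.12 under Tg and 0.43 in DMSO, with no member of either list called in the test of the difference.

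**Figure D5:**
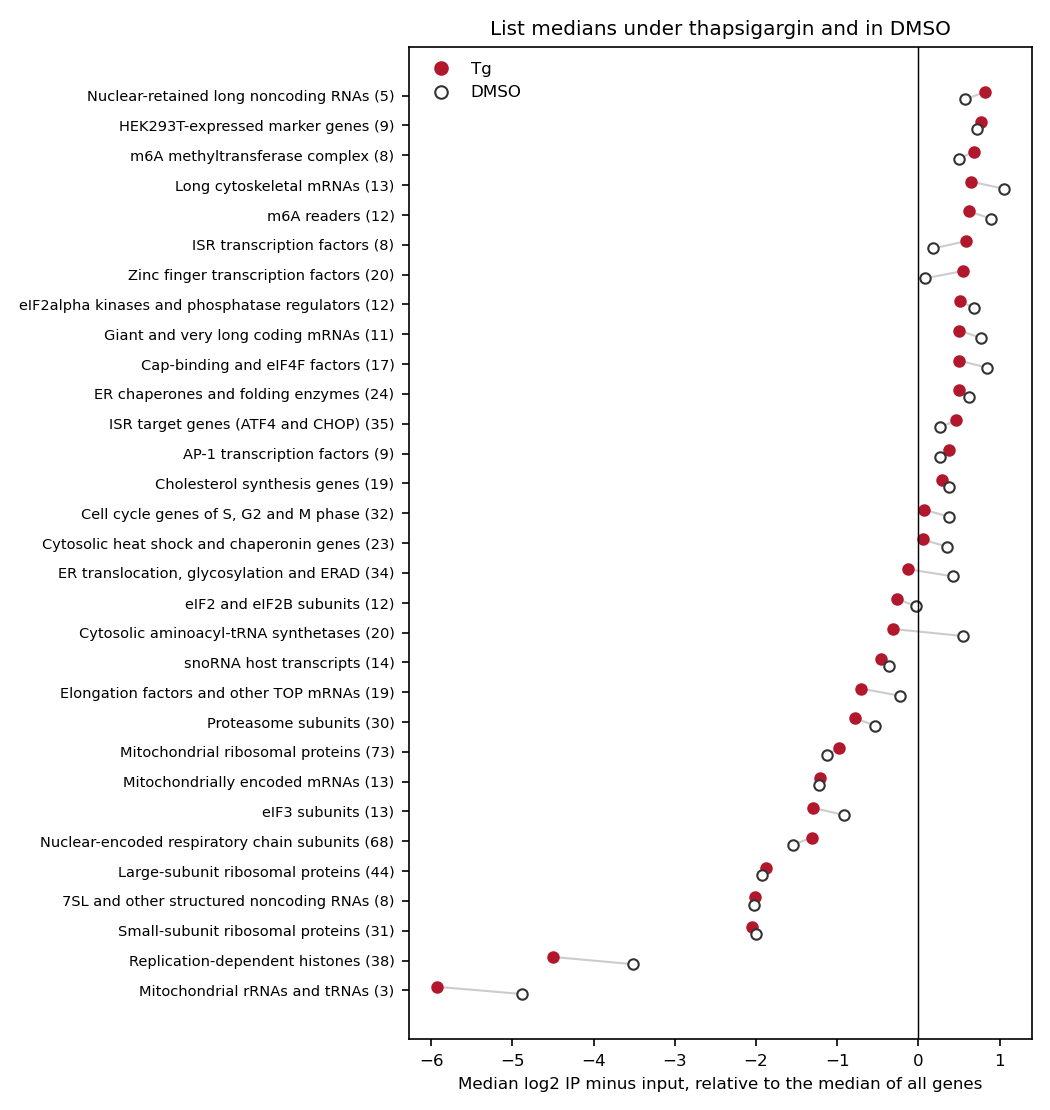
Median IP minus input difference of 31 gene lists relative to the median of all genes, under Tg (red) and in DMSO (open), in log2 units, with the number tested beside each list. The 2 medians of most lists lie close together, and both ribosomal protein lists are at about -2 under each treatment.

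Some of the best recovered mRNAs fell outside the 9813 genes because their inputs were too low. Of the 48908 genes below the input limit, 95 had at least 5 RPKM in both IP Tg libraries, and in all 95 both IP values exceeded both inputs, which the choice of these genes fixes, since an input mean below 1 RPKM keeps each input below 4 RPKM. SPTBN1, the beta spectrin that pairs with SPTAN1, led them with 88.5 and 163 RPKM in IP Tg, against 0.688 and 0.117 RPKM in input Tg. MYO6, an actin motor, had 25.4 and 58.1 RPKM in IP Tg, against 1.43 and 0.17 RPKM in input Tg. CGN, cingulin of tight junctions, had 16.9 and 40.8 RPKM in IP Tg, against 0.296 and 0.113 RPKM in input Tg. PATJ, a scaffold of cell junctions, had 22.01 and 37.6 RPKM in IP Tg, against 0.932 and 0.284 RPKM in input Tg. Its relative MPDZ had 12.8 and 19.6 RPKM in IP Tg, against 0.643 and 0.118 RPKM in input Tg. All of these were low in both inputs and well above them in both IP libraries. MACF1, which links microtubules to actin, had 11.1 and 46.5 RPKM in IP Tg, against 0.669 and 0.0633 RPKM in input Tg, with replicate 2 higher in the IP, and SYNE2, which ties the nucleus to the cytoskeleton, had 12.3 and 25.7 RPKM in IP Tg, against 0.2 and 0.0212 RPKM in input Tg. They were named after their values were seen and were not tested.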

How the data were processed

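Subunit-Seq values were deposited by the authors as RPKM, in 1 table per replicate, each with the IP and input of both treatments. Per the labels' protocols, libraries were made with the NEBNext Ultra II Directional kit. Cutadapt, STAR, BWA, DESeq2 and the build GRCh38 appear in the submitters' processing notes, without versions; the gene counter and annotation are not given in the sources used here. The m6A site positions were deposited by the authors as lists with strand and no score; other files were not used. Since RPKM is scaled to the library total, a larger share of mitochondrial rRNA in input lowers every other gene there.

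RPKM steps gave whole reads (within 0.02) for at least 99.8% of values per library, over 21736 genes with a length, and hence the depths; 3 reads are the floor at a count of 0. Gene symbols matched 9783 members and RefSeq records (GRCh38.p14) 9335. Values were log2(RPKM + 1), fitted in limma 3.58.1 (R 4.3.3; lmFit, contrasts.fit, eBayes with trend; 3 residual degrees of freedom, infinite prior, so standard errors rest on the pooled spread), with all 8 Subunit-Seq libraries, a replicate block because the tables are per replicate, two-sided tests and Benjamini-Hochberg adjustment at 0.05. The fit was tested on simulated data in which all genes had the same spread and replicates had no shared effect. That simulation therefore cannot judge the pooled spread or the replicate block in the real data.

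Named genes were EIF3D; the 10 largest and 10 smallest differences among called genes with a mean of at least 5 RPKM and groups that did not overlap; per list up to 4 such members, or otherwise the 2 most expressed; and JUN, HSPA5, ATF4, ALKBH5, METTL3, DDIT3, METTL14 and EIF2AK4. Some genes that this rule picks are not reported here, and further genes were named after their values were seen. The 33 lists and the members were chosen with earlier results of these data known. Alternatives were another pseudocount, filter, scaling, prior or model and leaving out each library.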

Additional observations from a re-analysis of the deposited data

Results flagged for a closer look

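In 6 genes the recovery under Tg differed from that in DMSO by the limma test of the difference itself. For RN7SL2 the Tg difference minus the DMSO difference was -4.32 (adjusted p = 1.05e-12), with IP minus input at -5.83 under Tg and -1.51 in DMSO, and it was called in 10 of 23 alternative fits. RN7SL4P stood at -4.22, RN7SL3 at -4.12 and RN7SL5P at -3.65, called in 7, 8 and 6 of 23 alternatives. These 4 are near-identical copies, so they count as 1 observation. MT-RNR1 stood at -1.56 (adjusted p = 0.0150), with IP minus input at -5.48 under Tg and -3.92 in DMSO, called in 6 of 23. MIR3929 stood at -3.81, but it was listed at 0 in 6 of 8 libraries, with 7.13 RPKM in input Tg replicate 1 and 23.3 RPKM in IP DMSO replicate 2. Groups of 2 libraries are too small for an outlier to be tested.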

How the results depend on the processing

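Against 1432 genes called higher and 159 lower in IP Tg, a pseudocount of 0.1 gave 355 and 92, a pseudocount of 5 gave 2347 higher, a filter over all 8 libraries 2797, a filter at 5 RPKM 289, the 4 Tg libraries alone 2211, centring 113 and 259, quantile normalization 116 and 79, rescaling without mitochondrial genes 582, and voom weights 150 and 63. With no filter on 31093 genes limma called 0 and 0, with 5563 at an unadjusted p under 0.05, and with each gene's own spread 0 and 0, with 1724. Without input DMSO replicate 2 in filter and fit, 3061 were called higher. Leaving out 1 library gave 36 to 2745 higher and 38 to 163 lower. No gene changed direction between calls in any of these 24 settings. The cause of these shifts was not tested.

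Without the replicate block 24 genes were called higher and 12 lower, and 0 in the comparison with DMSO. Deviations of same-numbered libraries correlated with r between 0.21 and 0.51 in 5 of the 6 pairs of groups and 0.002 between IP DMSO and input DMSO, so the numbers are not shown to pair all libraries, and most calls rest on the block.

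For the difference between treatments, with 6 genes called less recovered under Tg, the counts were 10 at a pseudocount of 5 and 0 at a pseudocount of 0.1, with no filter, with centring, quantile normalization, rescaling, a robust prior, voom, each gene's own spread or the filter and fit without input DMSO replicate 2; the unadjusted p was under 0.05 for 14 to 362 genes in these. The filter over all 8 libraries called 2 genes more recovered. Leaving out 1 library gave 0 to 17 less and 0 to 2 more recovered.

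After centring, EIF3D stood at -0.49, EIF2S2 at -0.23, GARS1 at -0.25, HBA1 at -0.93 and METTL3 at -0.71, all opposite in sign to the fit without centring and none of them called in it. Leaving out 1 library moved EIF3D between -0.59 and 1.75, SARS1 between -0.76 and 0.37 and HBA1 between -1.27 and 1.56. Under quantile normalization MT-CO2 was at 0.63, MT-CO3 at 0.15, METTL3 at -0.66 and HBA1 at -0.51. HBA1 was at -0.47 without input Tg replicate 2, at -0.0004 after rescaling and -0.45 with voom. With no filter the medians of the eIF2 and synthetase lists were 0.38 and 0.33 above all genes. Depth limits genes near 1 RPKM most, since 1 read in 1 kb is worth 0.196 RPKM in input Tg replicate 1 and 0.0593 in IP Tg replicate 1.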

Other observations

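Among the 20 highest members of IP Tg by mean RPKM, MIR1244-2 was at 611 and 4069.6 RPKM in IP Tg, against 205 and 157 RPKM in input Tg. Replicate 2 of the IP was far above replicate 1. The gene is 85 bases long and has near-identical copies (MIR1244-3 and MIR1244-4), so its reads are uncertain. Tested pseudogenes had a median difference of 0.06 over 727 genes, against 0.94 over 8083 protein-coding genes and 0.98 over 331 long noncoding RNAs.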
